A study of Mus musculus with 6 samples.

Results

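Nuclear-encoded oxidative phosphorylation genes were compared between mouse glioblastoma (GBM) neurosphere cultures labelled ATRX knockout (ATRX KO) and cultures labelled ATRX wild type (ATRX WT), with 3 RNA-seq libraries in each group. The genes were taken by symbol: names that start with Nduf, Uqcr, Atp5, or Cox and a digit, the Sdha to Sdhd genes, and Cycs and Cyc1. The rule found 96 of the 13069 genes in the table, and it used no measured value. Of these, 77 code for subunits or cytochrome c and 16 for assembly factors. A total of 95 passed the filter on low values, which 3 or more of the 6 libraries had to meet with a log2 RPKM of 0 or above. RPKM is a read count divided by gene length and by library size, so levels of different genes can be set side by side per length.

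All cultures came from tumours started in the brain ventricles of newborn C57BL/6 or FVB animals by injecting plasmids of the Sleeping Beauty transposon system. Every tumour carried a short hairpin against p53 and a plasmid that over-expresses NRAS. The groups differed in a further plasmid, a short hairpin against ATRX, and the labels call the ATRX KO group a knockout. Cells were kept as neurospheres in neural stem-cell medium with FGF and EGF. The design text calls the libraries biological replicates, but all 3 titles of a group carry 1 line code (C54B for ATRX KO, C39E for ATRX WT). Genotype, cell line and any difference of strain between the lines therefore cannot be told apart. The p-values measure only the spread between libraries of a line.

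Oxidative phosphorylation takes place in the inner mitochondrial membrane. Complexes I and II pass electrons from NADH and succinate to ubiquinone, complex III passes them to cytochrome c, and complex IV passes them to oxygen. Complexes I, III and IV pump protons, and complex V, the ATP synthase, uses the return flow to make ATP. Most subunits are coded in the nucleus and imported, a smaller set is coded in mitochondrial DNA, and dedicated assembly factors join them. Several complex IV subunits exist as isoforms that are typical of particular tissues, such as heart and skeletal muscle, lung or testis.

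The table held 22177228 to 32477269 reads per ATRX KO library and 34966108 to 38039847 per ATRX WT library. Atrx, the targeted gene, measured 14.1, 16.6 and 17.1 RPKM in the ATRX KO libraries and 22.3, 22.7 and 21.6 in the ATRX WT libraries (log2 fold change -0.48, SE 0.068, limma adjusted p = 1.35e-04). Its transcript was thus lower but present in the knockout-labelled libraries. Pearson's r of log2 RPKM across genes was at least 0.997 within ATRX KO, at least 0.998 within ATRX WT, and as low as 0.662 between the groups. The groups also differed in cell type markers. Neural stem and glial markers (6 of 7 in the table) had summed levels between 47.5 and 49.3 RPKM in ATRX KO, against 3180 to 3250 in ATRX WT. Olig1 had 0 reads in all ATRX KO libraries and Olig2, Fabp7 and Ptprz1 had at most 2, while Sox2 and Nes were present in all 6 libraries. Mesenchyme markers (6 of 6 in the table) summed to 1160 to 1325 RPKM against 1.91 to 1.99, with Col1a2 and Thy1 under the filter and Thy1 lower in ATRX KO (0.397, 0.674 and 0.897 RPKM against 1.06, 1.31 and 0.995). Neuron markers (5 of 5) summed to 5.23 to 5.24 against 47.8 to 49.3 RPKM, while the endothelial markers (1 of 3 in the table, Cdh5) measured 5.37, 6.23 and 5.69 RPKM in ATRX KO and 0.0288, 0.0525 and 0.0408 in ATRX WT. The 4 microglia and the 2 red blood cell markers had no row in the table under the symbols searched and were not analysed here. The part of these marker differences in the results that follow was not tested, and in bulk RNA fewer cells of a type and less RNA per cell cannot be told apart.

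Most of the oxidative phosphorylation genes were lower in ATRX KO, by a modest amount. Of the 95 tested, 66 fell (69.5%), 18 rose (18.9%) and 11 did not pass the limma threshold (Benjamini-Hochberg adjusted p under 0.05 over all tested genes). Among all 12201 tested genes 45.9% fell and 43.6% rose, so that 89.5% were called in either direction and a call as such says little about a gene. The median log2 fold change (ATRX KO minus ATRX WT) was -0.27 over the 95 genes, with quartiles of -0.58 and -0.05, against -0.02 over all tested genes, with quartiles of -0.72 and 0.64. The 3 ATRX KO values all lay under the 3 ATRX WT values in 66 genes and all over them in 17, and in 12 genes the groups overlapped. Non-overlapping groups made up 90.5% of all tested genes. Large changes were few: 9 genes (9.47%) were called with a log2 fold change of at least 1 in either direction, against 36.8% of all tested genes. The 95 genes were also more abundant, with a median of 107 RPKM in ATRX WT against 11.9 over all tested genes. The part of abundance in this contrast was not tested. The split depended on scaling. With the reads in the table as library size 12 rose and 76 fell, with a median of -0.47, and the median of all tested genes was then -0.22 (4362 rose and 6727 fell of 12212). Quantile normalization gave 14 and 75, with a median of -0.53 against -0.02 for all tested genes. Under either of these scalings 9 of the 11 genes not called were called lower.

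**Figure D1:**
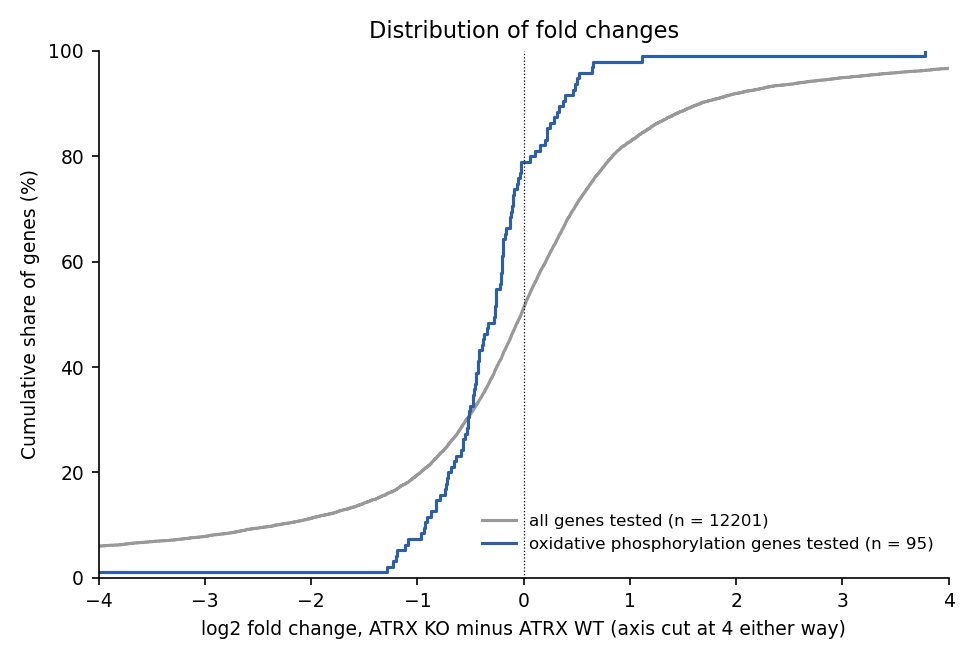
Cumulative share of genes (percent, y axis) by log2 fold change, ATRX KO minus ATRX WT (x axis), for the 95 tested oxidative phosphorylation genes and for all 12201 tested genes. The curve of the oxidative phosphorylation genes is steeper and crosses its middle at -0.27, against -0.02 for all genes.

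Reads of the 96 genes made up 0.982%, 0.939% and 0.954% of the reads in the table for the ATRX KO replicates, against 1.36%, 1.36% and 1.38% for the ATRX WT replicates. The summed RPKM of the 96 genes in ATRX KO was 78.6% of that in ATRX WT. By complex this share was 78.6% for complex I, 94.6% for complex II, 88.7% for complex III, 73.3% for complex IV and 79.4% for complex V. Complex II, the smallest, thus stood nearest to its ATRX WT level and complex IV furthest from it, on the summed scale, which abundant genes dominate. On the same scale all tested genes longer than 1000 bases summed to 116% of ATRX WT, and those of up to 1000 bases to 129%. Relative to these totals every complex, complex II included, stood lower than its share alone shows. The summed shares are given under the authors' scaling only. Within complex II only Sdhb rose, to 157% of ATRX WT, while Sdha, Sdhc and Sdhd stood at 83.7%, 79.2% and 82.6%. By median log2 fold change complex II (-0.27) was not nearest to 0, with complex I at -0.24 and complex V at -0.21.

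**Figure D2:**
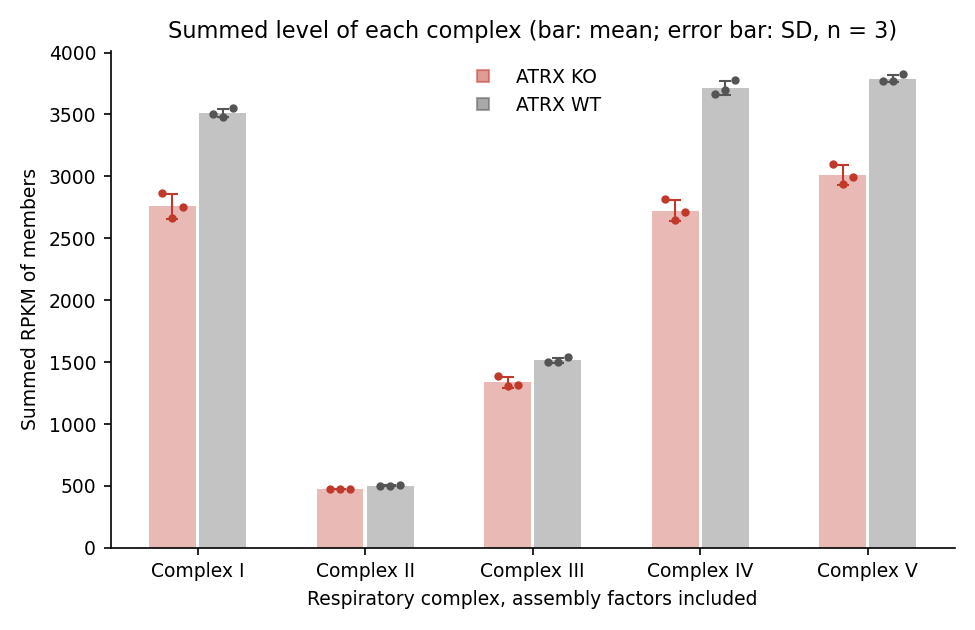
Summed RPKM (y axis, from 0) of the genes of each complex, assembly factors included (x axis). Bars are means of 3 libraries per group, error bars are SDs and points are libraries. Every complex sums lower in ATRX KO, from 73.3% of ATRX WT in complex IV to 94.6% in complex II. All tested genes longer than 1000 bases sum to 116% and those of up to 1000 bases to 129%.

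NRF1 and the ETS factor GABP are textbook activators of respiratory genes, so the RefSeq start regions (GRCm38.p6, 250 bases before to 50 after each gene's start) of the genes were searched for their motifs on both strands. Of the 96 genes, 80 had an entry. The NRF1 motif, the palindrome in capitals in the Atp5k and Cox6a1 sequences printed next, occurred in 7 of them (8.75%), against 1.07% of the 27025 genes in the reference table and 2.33% of 9743 tested genes with an entry. Its core GCATGCGC, which every full match also holds, occurred in 13 (16.2%), against 3.05% and 6.13%. The ETS motif CCGGAAGT occurred in 9 (11.2%), against 4.31% and 9.33%. Genes with the NRF1 motif had a median log2 fold change of -0.42 (6 fell, none rose) and those without it -0.26. For the core the medians were -0.39 and -0.27, with 10 falls and 1 rise among the 13. For the ETS motif they were -0.28 and -0.28, with 6 falls and 2 rises among the 9. Of all 95 tested oxidative phosphorylation genes 69.5% fell and 18.9% rose, and a link between motif and direction was not tested. A match describes the letters only. The core and ETS motifs were added after the data had been seen.

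The 250 bases upstream of 4 of these genes are shown because they carry the NRF1 letters while the genes differ in direction: Cycs, Atp5k and Cox6a1 fell and Sdhb rose. Capitals mark the full NRF1 motif in Atp5k and Cox6a1 and the core in Cycs and Sdhb, and each sequence runs 5′ to 3′ on the gene's strand up to the base before the start. Cycs lies at chr6:50566570-50566819, minus strand, Atp5k at chr5:108434400-108434649, minus strand, Cox6a1 at chr5:115348959-115349208, minus strand, and Sdhb at chr4:140961021-140961270, plus strand.
Cycs: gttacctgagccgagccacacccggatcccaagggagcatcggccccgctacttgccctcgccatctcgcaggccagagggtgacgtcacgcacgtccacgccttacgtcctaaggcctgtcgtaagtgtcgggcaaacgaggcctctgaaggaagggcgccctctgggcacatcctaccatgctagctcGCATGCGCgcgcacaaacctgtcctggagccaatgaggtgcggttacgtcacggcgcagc
Atp5k: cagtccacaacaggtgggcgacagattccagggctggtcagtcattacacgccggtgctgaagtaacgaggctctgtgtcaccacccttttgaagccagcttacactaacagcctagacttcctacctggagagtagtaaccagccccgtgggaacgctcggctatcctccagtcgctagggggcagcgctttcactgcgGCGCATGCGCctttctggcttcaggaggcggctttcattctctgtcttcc
Cox6a1: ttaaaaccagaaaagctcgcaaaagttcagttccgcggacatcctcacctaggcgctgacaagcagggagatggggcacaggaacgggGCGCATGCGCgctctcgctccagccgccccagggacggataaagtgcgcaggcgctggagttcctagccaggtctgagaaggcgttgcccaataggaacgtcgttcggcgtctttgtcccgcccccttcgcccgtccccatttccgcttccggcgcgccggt
Sdhb: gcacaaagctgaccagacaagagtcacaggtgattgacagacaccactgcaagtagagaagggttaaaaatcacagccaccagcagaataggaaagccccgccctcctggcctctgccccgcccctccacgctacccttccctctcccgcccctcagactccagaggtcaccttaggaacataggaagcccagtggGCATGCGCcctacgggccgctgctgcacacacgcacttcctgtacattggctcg

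**Figure D3:**
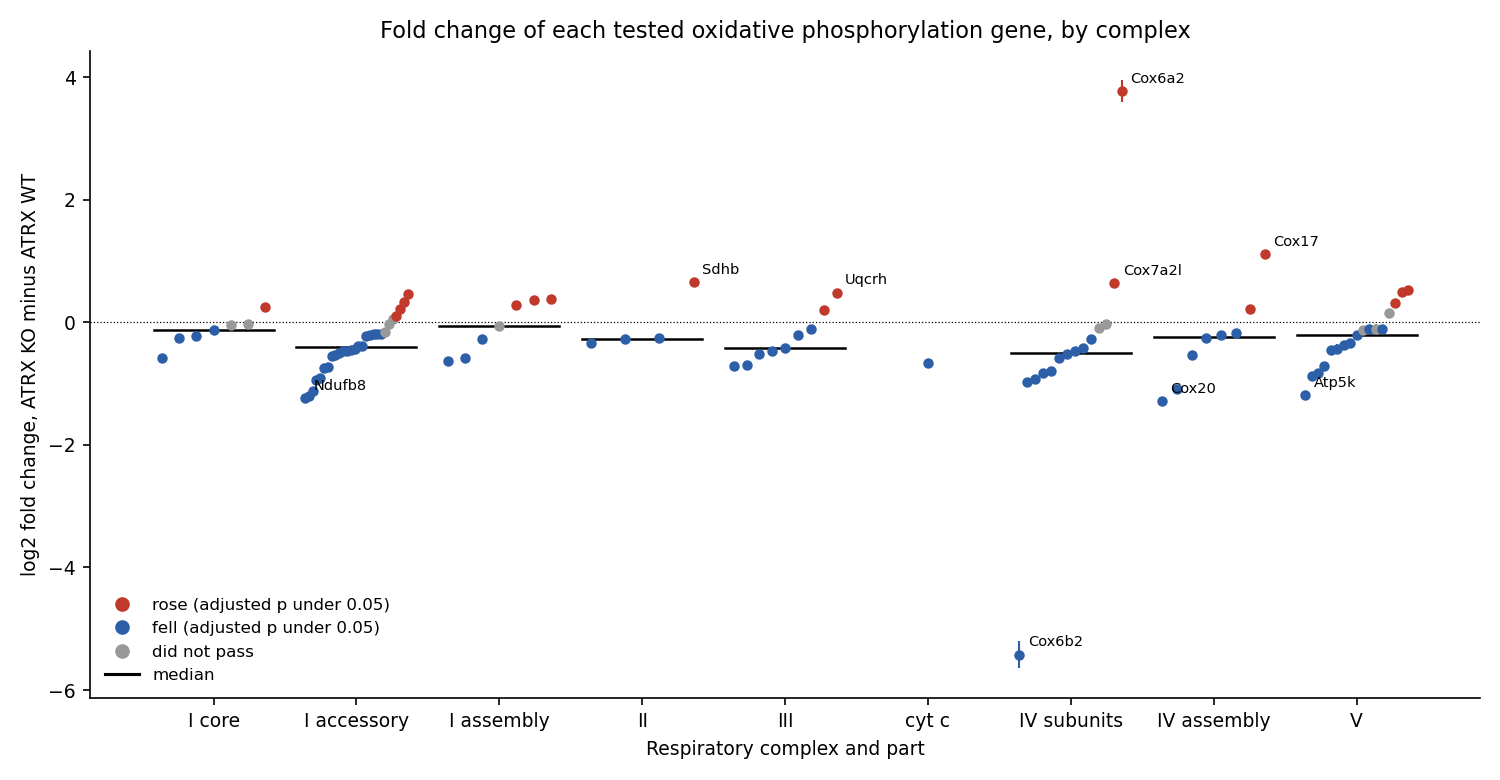
log2 fold change, ATRX KO minus ATRX WT (y axis), of each tested oxidative phosphorylation gene, grouped by complex and part (x axis). Points are genes, and most lie below 0 in every complex, with Cox6a2 at 3.78 and Cox6b2 at -5.42 as the extremes.

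In complex I, the NADH dehydrogenase, accessory subunits stood lower relative to ATRX WT than the core subunits did, on the summed scale. Of its 42 genes 28 fell, 8 rose and 6 were not called, with a median log2 fold change of -0.24. The 7 nuclear-encoded core subunits, which carry the flavin and iron-sulphur clusters, summed to 91.9% of their ATRX WT level, the 28 accessory subunits to 75.2%, and the 10 Ndufb subunits of the membrane arm to 66.1%. Of the Ndufb genes 8 fell, 1 rose and 1 was not called, and the accessory subunits Ndufc1 and Ndufc2 fell to 53.3% and 60.2% of ATRX WT. Ndufb8 (chr19:44548571-44555442) measured 140.5, 124 and 134 RPKM in the ATRX KO libraries and 310.1, 304 and 321 in the ATRX WT libraries (log2 fold change -1.23, SE 0.047, limma adjusted p = 1.38e-08). Ndufb2 measured 36.2, 33.2 and 33.7 RPKM in the ATRX KO libraries and 75.5, 73.7 and 74.9 in the ATRX WT libraries (log2 fold change -1.12, SE 0.036, limma adjusted p = 5.00e-09). Neither gene's groups overlapped, and the ATRX KO level was 42.6% and 46% of ATRX WT. Ndufv3, an accessory subunit of the NADH-binding tip, measured 15, 13.6 and 14.7 RPKM in the ATRX KO libraries and 33.4, 32.8 and 33.3 in the ATRX WT libraries (log2 fold change -1.20, SE 0.042, limma adjusted p = 7.56e-09). Annotated exons of Ndufb8 overlap Gm20538 on the same strand. Those of Ndufb2 overlap Gm42420 on the same strand, and Braf and Gm16272 on the opposite strand. Whether the counting used strand is not given in the sources used here.

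Among the core subunits Ndufv2 fell most, to 67.2% of ATRX WT, with 60.5, 59.7 and 60 RPKM in the ATRX KO libraries and 90.1, 91 and 87.3 in the ATRX WT libraries (log2 fold change -0.57, SE 0.026, limma adjusted p = 4.74e-08). Ndufs8, Ndufs1 and Ndufs3 fell less, with log2 fold changes of -0.26, -0.22 and -0.13. Ndufv1, which binds NADH and the flavin, was not called, at -0.03 (limma adjusted p = 0.59). It was called lower under both other scalings (-0.22 and -0.23) and without ATRX KO replicate 1 (-0.07, limma adjusted p = 0.039). Ndufs7 rose, with 111, 92.9 and 101 RPKM in the ATRX KO libraries and 82.3, 83.2 and 91.3 in the ATRX WT libraries (log2 fold change 0.24, SE 0.065, limma adjusted p = 0.0066), but it was not called under either other scaling, where its log2 fold change was 0.05 and 0.02. The core set thus ran from -0.57 in Ndufv2 to 0.24 in Ndufs7, its only rise.

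Of the accessory subunits, Ndufa12 rose most, with 104, 89 and 101 RPKM in the ATRX KO libraries and 73.1, 69.4 and 70.8 in the ATRX WT libraries (log2 fold change 0.46, SE 0.056, limma adjusted p = 4.35e-05). Ndufb4, the Ndufb gene that rose, measured 19.7, 16.3 and 18.1 RPKM in the ATRX KO libraries and 14.2, 14.2 and 14.4 in the ATRX WT libraries (log2 fold change 0.33, SE 0.063, limma adjusted p = 9.28e-04), and 0.14 with a limma adjusted p of 0.064 when the reads in the table set the library size. In both genes all ATRX KO libraries stood above all ATRX WT libraries. Ndufa10 (0.22) was not called under either other scaling, and Ndufa13 (0.11) turned to a fall under both, with -0.09 and -0.11. A further 3 accessory subunits were not called: Ndufa7 at 0.06, Ndufb6 at -0.03, and Ndufab1, the mitochondrial acyl carrier protein, at -0.17 (limma adjusted p = 0.054). Ndufb6 was called lower under both other scalings (-0.23 and -0.29), and so was Ndufab1 (-0.36 and -0.27), whose groups did not overlap. Ndufab1 was also called lower by voom (limma adjusted p = 0.027) and without ATRX KO replicate 1 (0.026), ATRX KO replicate 3 (0.029) or ATRX WT replicate 2 (0.036). The assembly factors split evenly, with 3 rises, 3 falls and 1 not called. Ndufaf3 and Ndufaf1 rose by 0.38 and 0.37, Ndufaf5 and Ndufaf4 had log2 fold changes of -0.64 and -0.58, and Ndufaf7 stood at -0.06 (limma adjusted p = 0.2).

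In complex II, succinate dehydrogenase, 3 of the 4 subunits fell and the iron-sulphur subunit rose. Sdhb (chr4:140961271-140979198) measured 141, 132 and 135 RPKM in the ATRX KO libraries and 88.5, 83.6 and 87.3 in the ATRX WT libraries, or 136 ± 4.44 against 86.5 ± 2.58 RPKM (SD, n = 3 each) (log2 fold change 0.65, SE 0.034, limma adjusted p = 1.24e-07). Sdha, the flavoprotein that oxidises succinate, measured 89.6, 92.3 and 91.1 RPKM in the ATRX KO libraries and 108, 109 and 109 in the ATRX WT libraries (log2 fold change -0.26, SE 0.024, limma adjusted p = 8.14e-06). The membrane anchors Sdhc and Sdhd had log2 fold changes of -0.34 and -0.28 (limma adjusted p = 2.21e-06 and 4.90e-06), at 79.2% and 82.6% of ATRX WT. The groups overlapped in none of the 4 genes. Sdhb was below Sdha, per length, in each ATRX WT library and above it in each ATRX KO library.

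Complex III, the cytochrome bc1 complex, had 7 falls and 2 rises among 9 genes, with a median log2 fold change of -0.42. The electron carriers fell. Uqcrfs1, the Rieske iron-sulphur protein, measured 83.7, 83.1 and 86.5 RPKM in the ATRX KO libraries and 120.1, 122 and 119 in the ATRX WT libraries (log2 fold change -0.51, SE 0.026, limma adjusted p = 1.06e-07), and Cyc1, cytochrome c1, measured 158, 143 and 149 RPKM in the ATRX KO libraries and 200.2, 207 and 218 in the ATRX WT libraries (log2 fold change -0.47, SE 0.045, limma adjusted p = 8.67e-06). They stood at 70.2% and 72.1% of ATRX WT. The small subunits Uqcrb and Uqcr11 fell furthest, to 60.9% and 62.2% (log2 fold changes -0.72 and -0.69, limma adjusted p = 4.20e-08 and 2.63e-06). Uqcrb has 3 near-identical copies (at least 95% identity over at least 50% of the transcript), so its reads may be split between them. Uqcrc2 and Uqcrc1, the core proteins, had log2 fold changes of -0.42 and -0.11. The call of Uqcrc1 was lost without ATRX KO replicate 2 (limma adjusted p = 0.092), ATRX KO replicate 3 (0.087) or ATRX WT replicate 3 (0.098). Uqcrh (chr4:116066965-116075070), the hinge protein, rose, with 249, 264 and 237 RPKM in the ATRX KO libraries and 178, 181 and 177 in the ATRX WT libraries (log2 fold change 0.48, SE 0.04, limma adjusted p = 3.14e-06). Uqcrq overlapped between groups, at 257, 208 and 232 RPKM in the ATRX KO libraries and 203, 193 and 209 in the ATRX WT libraries (log2 fold change 0.20, SE 0.07, limma adjusted p = 0.024). It was not called without ATRX KO replicate 3 (limma adjusted p = 0.055) or ATRX WT replicate 2 (0.056), and its log2 fold change was 0.00 with the reads in the table as library size and -0.11 after quantile normalization.

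Cycs, the somatic cytochrome c that carries electrons from complex III to complex IV, fell to 63.3% of ATRX WT. It measured 20.3, 18.6 and 20.1 RPKM in the ATRX KO libraries and 30.9, 32.3 and 29.8 in the ATRX WT libraries, or 19.7 ± 0.933 against 31 ± 1.25 RPKM (SD, n = 3 each) (log2 fold change -0.66, SE 0.045, limma adjusted p = 7.93e-07). No ATRX KO library reached the lowest ATRX WT library. Per length it was far less abundant than its membrane-bound partner Cyc1 in each library.

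Complex IV, cytochrome c oxidase, had the lowest median of the complexes, -0.45, with 16 falls, 4 rises and 2 genes not called among 22 tested. Cox5a, one of the larger nuclear-encoded subunits, measured 224, 218 and 229 RPKM in the ATRX KO libraries and 417, 428 and 429 in the ATRX WT libraries (log2 fold change -0.93, SE 0.03, limma adjusted p = 4.65e-09). Ndufa4, first assigned to complex I and now to complex IV, measured 198, 198 and 206 RPKM in the ATRX KO libraries and 355, 358 and 355 in the ATRX WT libraries (log2 fold change -0.83, SE 0.028, limma adjusted p = 6.03e-09). They stood at 52.6% and 56.4% of ATRX WT, with no overlap. Cox8a and Cox7b fell to 69.7% and 66.4%, with log2 fold changes of -0.52 and -0.59 (limma adjusted p = 4.68e-06 and 1.07e-07), and Cox7c and Cox6c had log2 fold changes of -0.47 and -0.27. Cox4i1 and Cox5b were not called, and their groups overlapped. Cox4i1 measured 429.9, 394 and 406 RPKM in the ATRX KO libraries and 414, 416 and 423 in the ATRX WT libraries (log2 fold change -0.03, SE 0.037, limma adjusted p = 0.51), and Cox5b had a log2 fold change of -0.09 (limma adjusted p = 0.12). Both were called lower under both other scalings, Cox4i1 with -0.22 and -0.47 and Cox5b with -0.28 and -0.37, and Cox5b also without ATRX KO replicate 1 (-0.15, limma adjusted p = 7.5e-04).

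The complex IV assembly factors (6 falls and 2 rises of 8 tested) held large changes in both directions. Cox20 and Cox14, which handle newly made mitochondrial COX2 and COX1, fell. Cox20 measured 11.6, 12.2 and 12.4 RPKM in the ATRX KO libraries and 29.1, 29.4 and 29.8 in the ATRX WT libraries (log2 fold change -1.28, SE 0.035, limma adjusted p = 1.72e-09) and Cox14 measured 35.6, 32.6 and 37 RPKM in the ATRX KO libraries and 71.6, 73.4 and 79.2 in the ATRX WT libraries (log2 fold change -1.09, SE 0.053, limma adjusted p = 7.72e-08). Cox17, the copper chaperone of the complex (chr16:38346983-38352763), rose, with 106, 89.6 and 93.6 RPKM in the ATRX KO libraries and 45.9, 41.3 and 46.4 in the ATRX WT libraries (log2 fold change 1.11, SE 0.066, limma adjusted p = 3.05e-07). In all 3 genes the groups were far apart relative to their spread. Cox10, which makes the haem A precursor, rose by 0.22 (0.02, not called, with the reads in the table as library size), and Cox18, Cox19, Cox15 and Cox11 had log2 fold changes of -0.53, -0.26, -0.21 and -0.17. The call of Cox11 was lost without ATRX KO replicate 2 (limma adjusted p = 0.059) or ATRX WT replicate 1 (0.054). Cox16 did not pass the filter, at 0.661, 0.61 and 0.799 RPKM in the ATRX KO libraries and 0.633, 0.472 and 0.564 in the ATRX WT libraries. Cox20 shares exon sequence with Hnrnpu on the opposite strand and Cox17 with Gm21987 on the same strand, and each has 1 near-identical copy (at least 95% identity over at least 50% of the transcript), so reads may be split between them.

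In complex V the F1 catalytic head fell without exception among its called genes, while in the stalk and membrane part 4 genes fell and 2 rose. Of 17 genes 11 fell, 3 rose and 3 were not called, with a median log2 fold change of -0.21. Atp5b, the catalytic beta subunit and the most abundant of the 96 genes per length, measured 915, 877 and 885 RPKM in the ATRX KO libraries and 1018, 1032 and 1051 in the ATRX WT libraries (log2 fold change -0.21, SE 0.035, limma adjusted p = 3.58e-04). Its partner Atp5a1 had a log2 fold change of -0.72 and stood at 60.8% of ATRX WT, the small Atp5e at 56.5% (-0.82), and the rotor subunit Atp5c1 changed by -0.12. Atp5d overlapped between groups, with 224, 188 and 207 RPKM in the ATRX KO libraries and 180.0, 178 and 199 in the ATRX WT libraries (log2 fold change 0.15, SE 0.066, limma adjusted p = 0.056), and turned to -0.04 and -0.16 under the other scalings. The beta and alpha subunits, which are equal in number in the enzyme, thus differed in how far they fell.

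In the stalk and membrane part 4 genes fell, 2 rose and 1 was not called. Atp5k, the e subunit at the dimer interface, measured 116, 113 and 106 RPKM in the ATRX KO libraries and 256, 258 and 249 in the ATRX WT libraries (log2 fold change -1.19, SE 0.036, limma adjusted p = 3.20e-09). Atp5j2, the f subunit, fell to 54.8% (-0.87), and Atp5f1 and Atp5h had log2 fold changes of -0.45 and -0.34. Atp5l, the g subunit, was not called at -0.10, and it has 9 near-identical copies. Atp5o, the OSCP that joins the stalk to the head, rose to 142% of ATRX WT, with 193, 190.1 and 182 RPKM in the ATRX KO libraries and 134, 129 and 136 in the ATRX WT libraries (log2 fold change 0.50, SE 0.032, limma adjusted p = 5.18e-07). Atp5j, coupling factor 6, rose to 125% (0.32, limma adjusted p = 6.70e-06). Both Atp5o and Atp5j lie on chromosome 16, where the median of all tested genes was 0.50. Atp5s and Atp5sl were counted in complex V by symbol only and lie outside the enzyme's structure. Atp5s rose by 0.52 and Atp5sl had a log2 fold change of -0.43, which was -0.08 and not called after quantile normalization.

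The largest changes of all 96 genes were a pair of complex IV isoforms that are typical of other tissues. Cox6a2, the heart and skeletal muscle form of COX6A (chr7:128205435-128206366), measured 14.1, 15.5 and 14 RPKM in the ATRX KO libraries and 0.902, 1.48 and 0.897 in the ATRX WT libraries, or 14.5 ± 0.838 against 1.09 ± 0.333 RPKM (SD, n = 3 each) (log2 fold change 3.78, SE 0.18, limma adjusted p = 5.80e-08). Its reads numbered 280, 266 and 190 in ATRX KO and 20, 37 and 21 in ATRX WT. The common form Cox6a1 moved the other way, with 239, 205 and 211 RPKM in the ATRX KO libraries and 281, 289 and 306 in the ATRX WT libraries (log2 fold change -0.42, SE 0.059, limma adjusted p = 1.24e-04). Cox6a2 accordingly went from 0.373% ± 0.117 of the summed RPKM of the pair in ATRX WT to 6.28% ± 0.728 in ATRX KO (SD, n = 3 each), so Cox6a1 still made up most of it. An exact permutation test over the 6 libraries gave a two-sided p = 0.1, the smallest that 3 against 3 allows. Annotated exons of Cox6a2 overlap Itgad on the opposite strand. Of the muscle markers, Acta2 alone was in the table, with 1.99 to 2.37 RPKM in ATRX KO against 0.729 to 0.924 in ATRX WT, and the part of such cells in the level of Cox6a2 was not tested.

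Cox6b2, the testis form of COX6B (chr7:4751792-4753094), was nearly lost from ATRX KO. It measured 0.528, 0.409 and 0.256 RPKM in the ATRX KO libraries and 15.6, 16.2 and 17.3 in the ATRX WT libraries (log2 fold change -5.42, SE 0.22, limma adjusted p = 2.47e-08), with 8, 5 and 2 reads against 359, 403 and 421. Cox6b1, the common form, fell too, with 216, 213 and 207 RPKM in the ATRX KO libraries and 359, 365 and 376 in the ATRX WT libraries (log2 fold change -0.79, SE 0.031, limma adjusted p = 1.64e-08). Cox6b2 made up 4.27% ± 0.121 of the pair in ATRX WT and 0.186% ± 0.0602 in ATRX KO (SD, n = 3 each, exact permutation p = 0.1). So in ATRX WT the less usual form was a small but regular part of the COX6B transcripts.

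Cox7a2 and Cox7a2l moved in opposite directions. Cox7a2, the common COX7A form, measured 94.2, 85.3 and 89 RPKM in the ATRX KO libraries and 169, 177 and 179 in the ATRX WT libraries (log2 fold change -0.97, SE 0.041, limma adjusted p = 2.80e-08). Cox7a2l, a related protein that links complexes III and IV into supercomplexes (chr17:83501917-83514333), measured 96.6, 94.7 and 94.1 RPKM in the ATRX KO libraries and 60.5, 60.9 and 61.2 in the ATRX WT libraries (log2 fold change 0.64, SE 0.024, limma adjusted p = 1.27e-08). The share of Cox7a2l went from 25.8% ± 0.484 of their summed RPKM in the ATRX WT libraries to 51.5% ± 0.996 in the ATRX KO libraries (SD, n = 3 each, exact permutation p = 0.1). In ATRX KO the levels per length of these genes were close to each other, while in ATRX WT Cox7a2 stood well above Cox7a2l.

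The 3 genes for the c subunit of the ATP synthase ring, which code for the same mature protein, kept similar shares of their summed RPKM. Atp5g3, the most abundant, measured 337, 303 and 319 RPKM in the ATRX KO libraries and 413, 414 and 416 in the ATRX WT libraries (log2 fold change -0.38, SE 0.04, limma adjusted p = 1.82e-05). Atp5g1 measured 67.9, 64.5 and 63.2 RPKM in the ATRX KO libraries and 68.5, 69 and 72.1 in the ATRX WT libraries (log2 fold change -0.10, SE 0.035, limma adjusted p = 0.024), a call lost without ATRX KO replicate 2 (limma adjusted p = 0.057), ATRX KO replicate 3 (0.09) or ATRX WT replicate 3 (0.092). Atp5g2 overlapped between groups, with 51.7, 41.7 and 45.7 RPKM in the ATRX KO libraries and 48.5, 50.1 and 53.3 in the ATRX WT libraries (log2 fold change -0.13, SE 0.072, limma adjusted p = 0.12). It was called lower under the other scalings (-0.33 and -0.29) and without ATRX KO replicate 1 (-0.21, limma adjusted p = 0.0041). Atp5g3 made up 77.5% ± 0.56 of the trio in ATRX WT and 74.2% ± 0.392 in ATRX KO, Atp5g1 13.1% ± 0.216 and 15.1% ± 0.548, and Atp5g2 9.45% ± 0.353 and 10.7% ± 0.568 (SD, n = 3 each, exact permutation p = 0.1 for each). Atp5g1 and Atp5g2 have near-identical copies. Further isoforms of the pairs, Cox4i2, Cox7a1, Cox7b2, Cox8b, Cox8c and Ndufa4l2, had no row in the table. The 13 mitochondrially encoded subunits had none under the symbols searched either, so these genes were not analysed here.

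**Figure D4:**
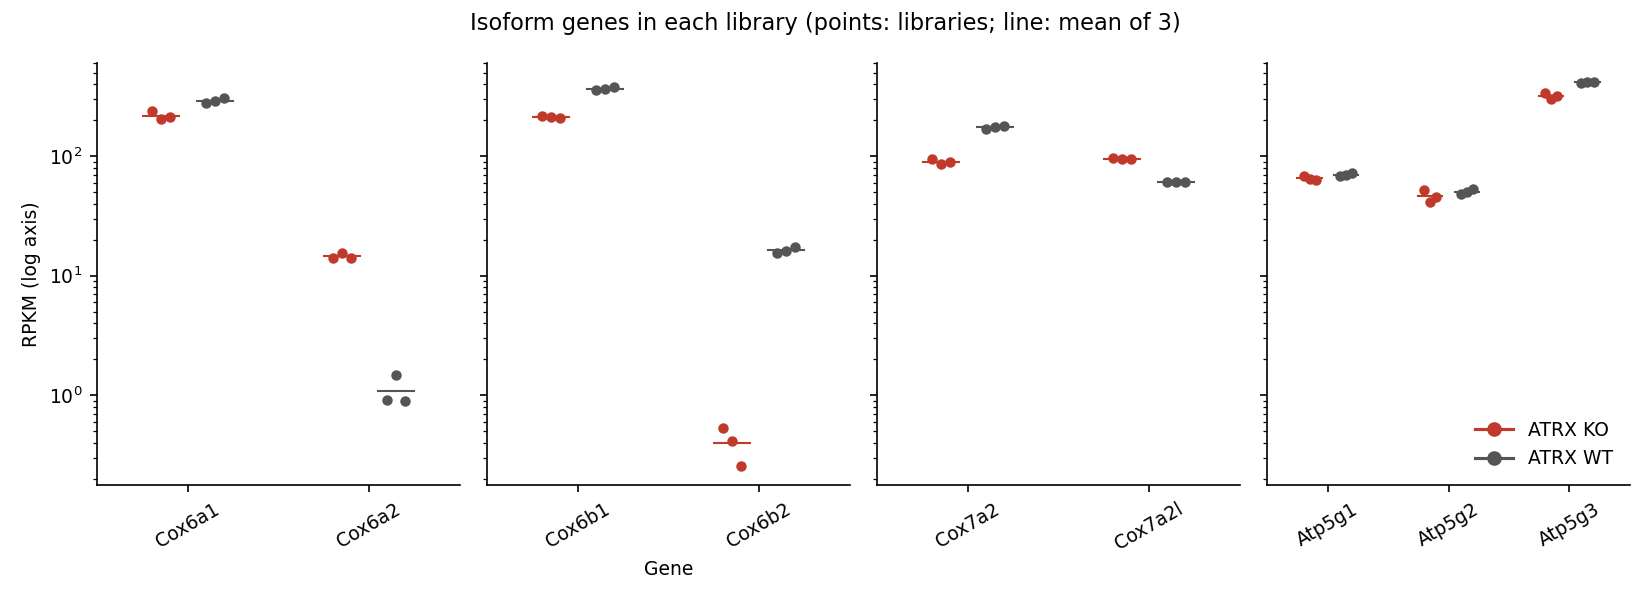
RPKM (log y axis) of the isoform genes of COX6A, COX6B, COX7A and the ATP synthase c subunit (x axis) in the ATRX KO and ATRX WT libraries. Points are libraries and lines are means of 3; Cox6a2 is higher and Cox6b2 lower in ATRX KO without overlap, and in each Atp5g gene the groups lie close together on this scale.

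Position on the chromosome was set beside each change, since stretches of chromosomes 4 and 16 hold many genes that were higher in ATRX KO. For each gene the median log2 fold change of the other tested genes in its 10 Mb bin (GRCm38.p6, mean log2 RPKM of at least 3) was taken. Sdhb and Uqcrh on chromosome 4 had neighbour medians of 1.23 (29 genes) and 1.30 (42 genes). On chromosome 16, Cox17 had 1.13 and Ndufb4 1.16 (38 genes each), Atp5j 0.87 (5 genes) and Atp5o 0.82 (26 genes). These 6 genes are 6 of the 18 that rose, and no other member had a neighbour median above 0.64. All 6 rose less than their neighbours, by 0.02 for Cox17, 0.31 for Atp5o, 0.56 for Atp5j, 0.58 for Sdhb and 0.82 for Ndufb4 and Uqcrh on the log2 scale.

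Of the 95 genes, 80 lay below their neighbour median. Among the rises elsewhere, Cox7a2l, Ndufa12 and Cox6a2 had neighbour medians of 0.08, 0.07 and 0.02. Without the 9 genes on chromosomes 4 and 16, 12 rose and 64 fell of 86 tested, with a median of -0.36. Over all tested genes the median was 0.48 on chromosome 4 and 0.50 on chromosome 16. The DNA copy number of these lines was not analysed here.

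**Figure D5:**
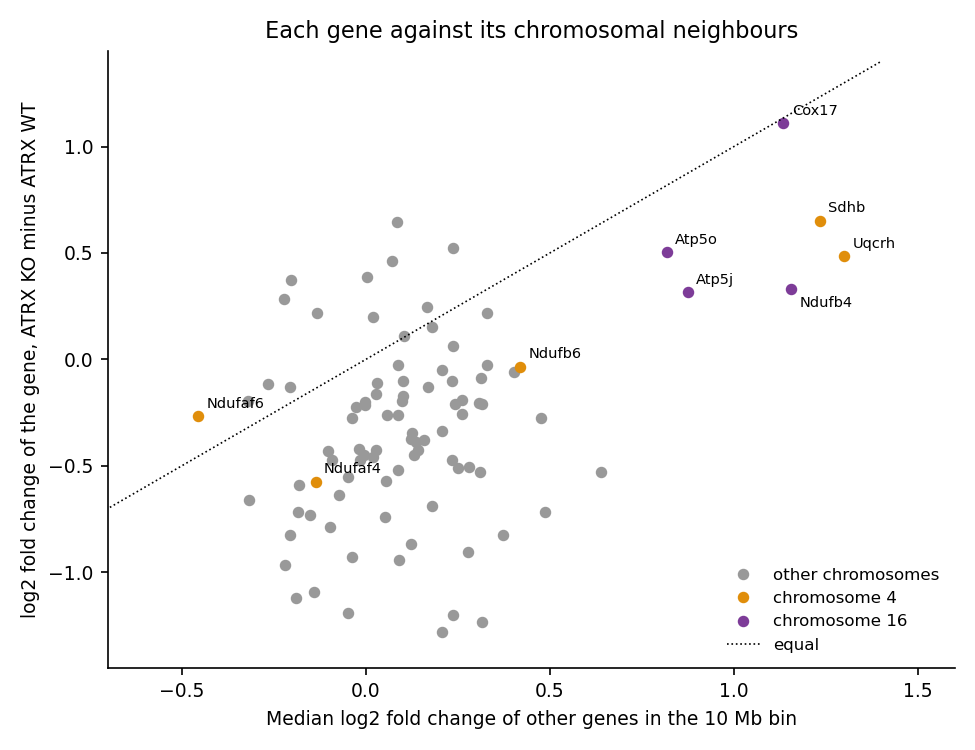
log2 fold change of each tested oxidative phosphorylation gene (y axis) against the median log2 fold change of the other genes in its 10 Mb bin (x axis), with the dotted line at equality and with Cox6a2 and Cox6b2, beyond the y range, left out. Sdhb, Uqcrh, Cox17, Ndufb4, Atp5j and Atp5o stand to the right at 0.82 to 1.30, and most genes lie below the line (80 of 95 tested, Cox6b2 included).

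Assembly factors and subunits outside the symbol rule also split, with 12 rises, 21 falls and 6 genes not called among 39 tested. For comparison, 43.6% of all tested genes were called higher and 45.9% lower. The list's median log2 fold change was -0.19, and that of all tested genes was -0.02. Taking the reads in the table as library size gave 12 rises and 25 falls, and these medians became -0.38 and -0.22. Complex IV factors lay on both sides. Among the falls were Pet100 at -1.60, Coa4 at -1.18 and Coa3 at -1.15. Surf1 (0.48) and Coa7 rose, and Sco1 and Sco2 were not called. The complex II factors Sdhaf1 and Sdhaf4, which act on the iron-sulphur and flavin subunits, fell as well, each with a log2 fold change of -1.16. Rises were led by Atpaf1, a chaperone of the F1 head (1.72), Lyrm7, which helps insert the Rieske protein (1.64), and Coa7 (1.34). Atpaf1 and Coa7 lie on chromosome 4. Sdhb rose while the factor that matures it, Sdhaf1, fell, and Uqcrfs1 fell while Lyrm7 rose.

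Among regulators of mitochondrial biogenesis and mitochondrial DNA expression, the coactivator Ppargc1a (PGC-1alpha) was nearly absent from ATRX KO. Its reads numbered 2, 1 and 1 in ATRX KO and 393, 422 and 449 in ATRX WT (log2 fold change -6.59, SE 0.17, limma adjusted p = 1.20e-09), and at so few reads the size of the fitted change depends on the prior count. Of the 20 regulators tested 14 rose, 4 fell and 2 were not called, with a median of 0.33, against 43.6% rises, 45.9% falls and a median of -0.02 over all tested genes (10 rises and 6 falls with the reads in the table as library size). Ppargc1b, a relative of Ppargc1a, rose by 0.61, the nuclear receptor Esrra by 0.64, Nrf1 by 0.39 and Tfam, which packages mitochondrial DNA, by 0.36. Gabpa, the DNA-binding subunit of GABP, rose by 1.12 and lies on chromosome 16. Polg, the mitochondrial DNA polymerase, had a log2 fold change of -0.66. The levels of these regulators and of the respiratory genes were measured in the same libraries, and a link between them was not tested.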

How the data were processed

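Poly(A) RNA from 6 cultures was sequenced with a stranded kit, per the labels' protocols. The deposited table holds log2 RPKM values of 13069 genes made by the authors, in 6 columns, all of them used. The submitters' processing notes name STAR 2.5.3a and HTSeq 0.11.2 as well as FastQC and Trim Galore. The authors used edgeR 3.20.9, per the same notes. The builds mm9 and mm10 are named there with no role, and the counting strand is not given in the sources used here. Each deposited log2 value matched a whole number of reads plus a prior count that scaled with library size and averaged 2 reads, from which whole reads were recovered for 100% of genes (tolerance 0.0001 reads). Relative to the reads in the table, the library sizes that the authors scaled by were 0.932 to 0.935 for ATRX KO and 1.07 for ATRX WT.

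The 12201 genes that reached a log2 RPKM of 0 in 3 or more of 6 libraries were fitted in a single linear model with limma 3.58.1 (R 4.3.3). Variances were moderated by empirical Bayes along a trend with the mean (residual degrees of freedom 4, prior 4.2). P-values are two-sided and were adjusted over all 12201 genes by the Benjamini-Hochberg method, with a threshold of 0.05. "Rose" and "fell" mean that a gene passed it. Errors are SDs over 3 libraries or standard errors (SE) of the fit. Few reads lie behind Cox6b2 and Ppargc1a in ATRX KO and behind Car9 in ATRX WT. Gene positions came from RefSeq (GRCm38.p6), and near-identical copies and overlapping exons from GENCODE transcripts with BLAST+ 2.17.0. Such copies exist for 14 genes: Atp5f1, Atp5g1, Atp5g2, Atp5h, Atp5l, Atp5o, Cox17, Cox20, Cox7c, Ndufa12, Ndufab1, Ndufb11, Ndufs3 and Uqcrb. Reads of these genes may be split between the copies.

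The members and gene lists were chosen with earlier results of these data known. Genes named are all isoform pairs, Sdha to Sdhd, Cycs and Cyc1, genes called with a log2 fold change of at least 1 in either direction, the 3 largest rises and falls of each complex, genes not called or not tested, and genes in 10 Mb bins with a median of at least 1 in either direction. Of the genes this rule names, 1 is not reported here. Other genes are named to complete the account of a complex or a list and were chosen after their values were seen. Same-numbered libraries did not deviate together across groups (correlations of deviations -0.045, 0.051 and -0.038), so the numbers were not taken to pair them. Alternatives were other library sizes, quantile normalization, another prior count, other filters, no trend, a replicate block, each library left out, and limma's voom on the recovered reads, which was added after the data had been seen.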

Additional observations from a re-analysis of the deposited data

How the results depend on the processing

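Scaling moved the results most. With the reads in the table as library size, 12 genes rose in place of 18, 4 of complex I in place of 8 and 1 of complex III in place of 2, and the median log2 fold changes were -0.47 for all genes and -0.44, -0.46, -0.62, -0.64 and -0.41 for complexes I to V. Quantile normalization gave -0.53 and -0.44, -0.50, -0.66, -0.70 and -0.43, with 5 rises in complex I and 1 in complex III. Among the genes of the naming rule, directions turned for Atp5d (-0.04 and -0.16 under these scalings), Ndufa7 (-0.13 and -0.09; from -0.01 without ATRX KO replicate 1 to 0.11 over the libraries left out), Uqcrq (-0.11, quantile), Cox4i1 (-0.06 to 0.00 over the libraries left out) and Ndufv1 (-0.07 to 0.01), the last 2 without ATRX KO replicate 2. Outside that rule Ndufa13 turned under both scalings (-0.09 and -0.11) and Ndufa10 after quantile normalization (-0.02). Complex III had 1 rise without the mean-variance trend. Leaving out each library gave 16 to 19 rises, 63 to 71 falls and a median of -0.31 to -0.26, and complex medians of -0.27 to -0.21, -0.27 to -0.26, -0.44 to -0.40, -0.50 to -0.39 and -0.23 to -0.20. Without chromosomes 4 and 16 12 rose and the median was -0.36, and subunits and cytochrome c alone gave 11 rises and -0.34. With the replicate number as a block, 19 rose and 67 fell, Atp5d and Ndufab1 being the genes gained. The planned edgeR and DESeq2 fits were not run, because the deposited unit is log2 RPKM. The cause of the changes was not tested.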

Other observations

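Genes for mitochondrial mass and import moved in both directions. Of 22 such genes, 14 rose, 6 fell and 2 were not called in ATRX KO, with a median log2 fold change of 0.37 against -0.02 over all tested genes (12 rises, 8 falls and 0.18 against -0.22 with the reads in the table as library size). Hspa9, the matrix chaperone of the import motor, rose by 1.47, and Tomm70a, an import receptor, by 1.30. Tomm70a and Opa1, which rose by 0.77, lie on chromosome 16, where the median of all tested genes was 0.50. Mfn2, which rose by 0.73, lies on chromosome 4, where that median was 0.48. The ADP/ATP carriers Slc25a4 and Slc25a5 fell by 1.32 and by 0.99 on the log2 scale, and citrate synthase, Cs, fell by 0.38.

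Genes of the hypoxia response moved in both directions. Of 18 genes 12 rose and 6 fell, with a median log2 fold change of 0.90 (11, 6 and 0.71 with the reads in the table as library size), against 43.6% rises, 45.9% falls and a median of -0.02 over all tested genes. Car9, a carbonic anhydrase, rose by 4.88, Pdk1, which restrains entry of pyruvate into the citric acid cycle, by 2.37, Lonp1, a mitochondrial protease, by 2.10, and Ldha by 0.98. Car9 lies on chromosome 4 and had 6, 8 and 3 reads in ATRX WT, so the size of its fitted change depends on the prior count. Epas1 (HIF-2alpha) fell by 1.39 and Adm, adrenomedullin, by 4.11 on the log2 scale, while Hif1a rose by 1.22. A link between these genes and the respiratory genes was not tested.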
